A study of Macaca fascicularis with 2 samples.

Results

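The Hedgehog pathway genes examined in the fetal monkey ovary were the ligands DHH and IHH, the receptor PTCH1, the signal transducer SMO, the transcription factors GLI1, GLI2 and GLI3, the ligand-binding inhibitor HHIP and the co-receptor BOC. They were taken by name, and all 9 had a row among the 18446 genes of the count table. The cells came from whole ovaries of Macaca fascicularis, from 1 fetus at embryonic day 84 (E84) and 1 fetus at embryonic day 116 (E116), dissociated with enzymes, with the ovaries of each fetus in 1 droplet library that reads the 3′ ends of polyA RNA. No treatment or genetic change was described for either fetus. The table holds the cells of the 2 libraries together, whose barcodes end in 1 or 2, and nothing in it ties an ending to a day, so every cell was taken as 1 pooled sample, and no result was given by day. Values within each barcode ending stand beside the pooled ones. An ending stands for 1 library, and so for 1 fetus and 1 day, and differences of library, animal and day between the endings cannot be told apart.

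In Hedgehog signalling, a secreted ligand binds PTCH1 on a receiving cell, which releases SMO from inhibition and leads the GLI factors to activate transcription. GLI1, PTCH1 and HHIP are themselves targets of the pathway, so their RNA is widely used as a readout of cells that respond to a ligand. HHIP and PTCH1 also bind and hold back the ligand, while BOC helps to present it. In the ovary, granulosa cells, which surround the oocyte, are known as a source of DHH and IHH, and the stromal cells outside the follicle, from which the androgen-producing theca cells arise, are known as receivers.

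Keeping cells with 200 to 3000 detected genes left 16292 of 20967 cells, with a median of 2670 unique molecular identifiers (UMIs, each standing for 1 counted RNA molecule), 2470 for ending 1 and 2964 for ending 2. A set of 27 barcode sequences occurred with both endings. Clustering without the pathway genes gave 20 clusters, of which 5 were named granulosa-like (4872 cells), 3 stroma-like (3968 cells), 5 germ cell-like (4826 cells), 1 pericyte-like (123 cells) and 5 surface epithelium-like, erythroid-like, endothelial-like or macrophage-like, and 1 stayed unnamed. Summed marker levels set the stroma-like class clearly apart (25056 CPM, UMIs scaled to a common total, against 2839 CPM in granulosa-like cells), and likewise the pericyte-like (4389 CPM against 553 in stroma-like cells) and germ cell-like classes (1958 CPM against 91.1). The granulosa markers separated less, at 1287 CPM in granulosa-like and 969 CPM in stroma-like cells, and no marker of those 4 lists was at 0 in its own class. Stroma-like cluster 0 had 1195 CPM of granulosa markers, more than granulosa-like clusters 6 (997 CPM) and 9 (836 CPM), each named on 3 of 11 markers. Stroma markers set these apart, at 22638 CPM in cluster 0, 2105 CPM in cluster 6 and 3763 CPM in cluster 9. The clusters themselves followed the endings. Of the large stroma-like clusters, cluster 0 (led by SPON2, WFDC1 and C7) held 2109 cells of ending 2 and 3 of ending 1, and cluster 2 (POSTN, LUM and OGN) 32 and 1715. Granulosa-like clusters 1 and 9 were nearly all of ending 1 and clusters 6 and 7 of ending 2, so a difference between such clusters cannot be told apart from a difference between the libraries.

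DHH was highest in granulosa-like cells, IHH was found mostly there, and GLI1 was found almost only in stroma-like cells, which also had the highest PTCH1, BOC and HHIP. Of all UMIs in retained cells, granulosa-like cells held 70.7% of those of DHH and 80.5% of those of IHH, and stroma-like cells held 90.8% of those of GLI1, 76.8% of those of BOC, 61.1% of those of HHIP and 49.4% of those of PTCH1. Granulosa-like cells still held 24.0% of the UMIs of PTCH1 and 29.7% of those of HHIP. Over all genes the same classes held 34.3% and 27.8% of UMIs. SMO and GLI3 were spread over both.

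Among the 9 genes, 5 were at least 2-fold higher in stroma-like than in granulosa-like cells, namely PTCH1, GLI1, GLI2, HHIP and BOC, where 9.97% of 13746 genes with 20 or more UMIs over both classes were. DHH and IHH were at least 2-fold higher in granulosa-like cells, 2 of 9, where 14.8% of genes were. The first count was 3 in barcodes ending in 1, with cells over 10% mitochondrial UMIs left out, and after thinning cells to 1000 UMIs, and HHIP was no longer counted in any of these. The median log2 ratio of stroma-like over granulosa-like cells was 1.34 for the 9 genes and −0.11 for all genes. With 1 pooled sample there is no test, and every interval given for a level, share or ratio is a 95% interval that covers counting error only, not differences between animals.

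**Figure D1:**
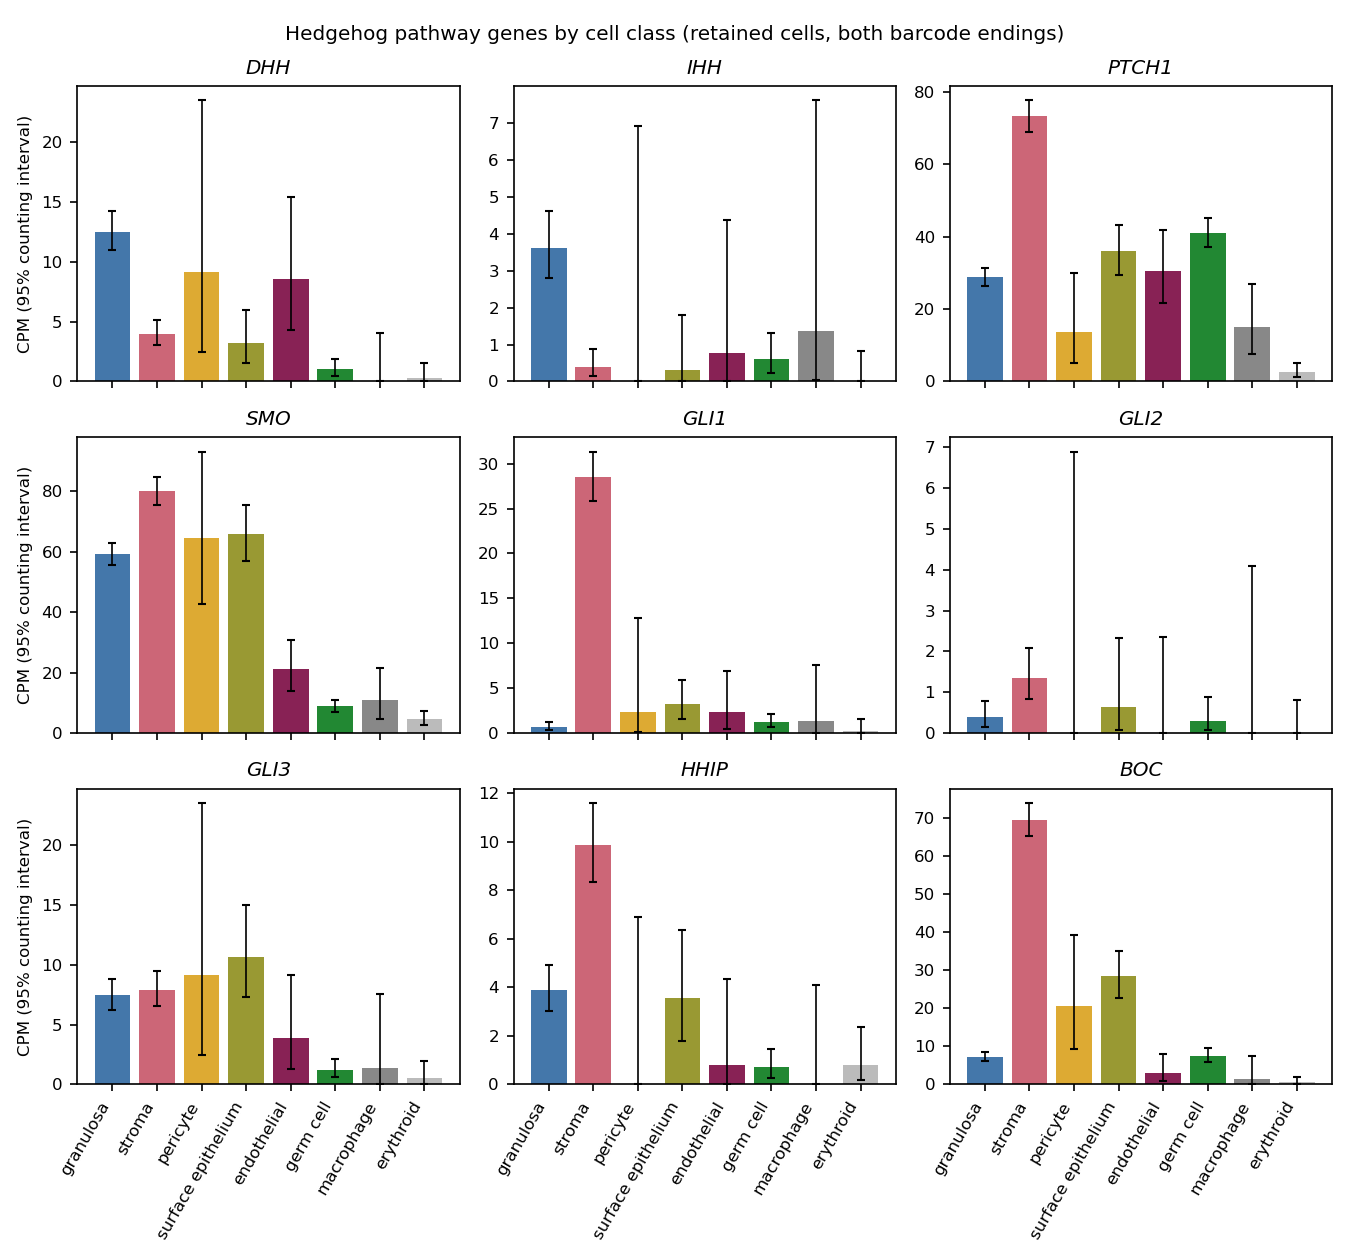
Level of each Hedgehog pathway gene (CPM, with exact 95% Poisson intervals) in the cell classes, 1 panel per gene. DHH and IHH peak in granulosa-like cells, GLI1, PTCH1, HHIP and BOC in stroma-like cells, and PTCH1 has a further high level of 41.0 CPM in germ cell-like cells.

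DHH, the ligand also known from the testis, where Leydig cells need it, was at 12.6 CPM (10.97 to 14.3, 229 UMIs) in granulosa-like cells and 3.98 CPM (3.03 to 5.14, 59 UMIs) in stroma-like cells. It was 3.15-fold higher in granulosa-like cells (log2 ratio of stroma-like over granulosa-like −1.66, −2.09 to −1.24). The granulosa-like level was similar for barcodes ending in 1 and 2 (12.1 and 12.9 CPM). The stroma-like level was 2.10 CPM for ending 1 and 5.17 CPM for ending 2, which gave log2 ratios of −2.53 and −1.33.

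Germ cell-like cells had little DHH, at 1.01 CPM. Erythroid-like cells, red blood cell precursors, had 0.271 CPM (1 UMI), and macrophage-like cells had no UMI. The levels of these genes in both classes serve as a measure of free RNA. GDF9, an oocyte gene, was at 5.42 CPM in erythroid-like and 20.5 CPM in macrophage-like cells, so the erythroid-like level can understate free RNA. Endothelial-like cells had 8.62 CPM (4.30 to 15.4) from 11 UMIs and pericyte-like cells 9.20 CPM (2.51 to 23.6) from 4 UMIs, intervals that overlap with that of granulosa-like cells. With no upper limit on genes, endothelial-like cells had 8.48 CPM (6.21 to 11.3, 46 UMIs). That lay between stroma-like (4.94 CPM, 4.11 to 5.89) and granulosa-like cells (15.03 CPM, 13.9 to 16.2). Within the granulosa-like class DHH was even, at 11.9, 13.2, 12.9 and 16.3 CPM in clusters 1, 6, 7 and 13. In cluster 9, whose cells had a median of only 728 UMIs, it was at 5.38 CPM. That value rests on very few UMIs, so a lower level there is not shown.

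IHH, the second ligand, was at 3.62 CPM (2.80 to 4.60, 66 UMIs) in granulosa-like and 0.405 CPM (0.149 to 0.882, 6 UMIs) in stroma-like cells, 8.93-fold higher in granulosa-like cells (log2 ratio −3.16, −4.66 to −1.96). With cells over 10% mitochondrial UMIs left out, IHH was no longer counted at 2-fold, and the log2 ratio was only a bound of −0.53. Unlike DHH, it was nearly absent from barcodes ending in 1, with 0.221 CPM in granulosa-like cells of ending 1 and 6.96 CPM in those of ending 2. Cluster 7 alone reached 22.6 CPM (44 UMIs). The same cells also stood out by INHBB, an inhibin subunit, and CYP17A1, the enzyme of androgen synthesis (104 CPM), and 48.1% of their UMIs were mitochondrial. Cluster 13, led by AMH, INHA and CYP19A1, genes of growing follicles, had 4.50 CPM, cluster 6 had 2.32 CPM and cluster 1 had 0.122 CPM.

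IHH in cluster 7 was 9.76-fold higher than in cluster 6 of the same barcode ending (log2 ratio 3.29, 2.37 to 4.30) and 5.03-fold higher than in cluster 13 (log2 ratio 2.33, 1.23 to 3.63), whereas DHH was level between clusters 7 and 6 (log2 ratio −0.04, −0.75 to 0.63). Counted against non-mitochondrial UMIs alone, IHH was at 43.0 CPM in cluster 7 and 2.82 CPM in cluster 6. The part of the mitochondrial share in this difference was not tested further. Without cluster 7, chosen for removal after the data were seen, the log2 ratio of IHH over the classes was −1.74.

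A handful of cells carried much of the IHH. Over the whole table, IHH had 229 UMIs in 112 cells, and 84 of those cells had 1 UMI. The 6 cells with at least 5 UMIs, a limit set after the values were seen, had 34, 17, 14, 9, 8 and 7 UMIs and held 38.9% of the total. All 6 were of ending 2 and granulosa-like when clustered with no upper limit on genes. They carried 6 to 52 UMIs of INHBB and 1 to 37 of CYP19A1, the aromatase that makes estrogen, and no UMI of GLI1. Without these cells, the granulosa-like cells of ending 2 in that clustering had 3.12 CPM of IHH instead of 5.87 CPM, against 0.136 CPM for ending 1.

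GLI1, the transcription factor whose own RNA follows pathway activity, was at 28.5 CPM (25.8 to 31.3, 422 UMIs) in stroma-like cells and 0.712 CPM (0.379 to 1.22, 13 UMIs) in granulosa-like cells. That is 40.0-fold higher in stroma-like cells (log2 ratio 5.32, 4.53 to 6.24), with 36.2 CPM in the stroma-like cells of ending 1 and 23.6 CPM in those of ending 2, and log2 ratios of 5.55 and 5.18. Outside the stroma-like class, the highest GLI1 level was 3.24 CPM (10 UMIs) in surface epithelium-like cells, followed by 2.35 CPM (3 UMIs) in endothelial-like and 2.30 CPM (1 UMI) in pericyte-like cells, whose intervals overlap.

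PTCH1, the receptor and a target of the pathway, was at 73.3 CPM (69.0 to 77.8) in stroma-like and 28.9 CPM (26.5 to 31.5) in granulosa-like cells, 2.54-fold higher in stroma-like cells (log2 ratio 1.34, 1.19 to 1.497). The stroma-like level was the same for the endings, at 73.3 CPM in each. After germ cell-like cells at 41.0 CPM came surface epithelium-like (36.0 CPM), endothelial-like (30.6 CPM) and granulosa-like cells, and the intervals of neighbours in this order overlap. Macrophage-like (15.03 CPM), pericyte-like (13.8 CPM) and erythroid-like cells (2.71 CPM) were lower. The macrophage-like class also had 3665 CPM of lymphocyte markers, and at resolution 1.0 a separate lymphocyte-like cluster of 96 cells was named.

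As a share of cells, 19.0% of stroma-like cells (median 3304.5 UMIs) had a PTCH1 UMI, and 0.814% of erythroid-like cells (median 4056 UMIs). After thinning every cell to 1000 UMIs, the shares were 6.61% (5.83 to 7.45) of 3738 stroma-like cells, 2.94% (2.45 to 3.49) of 4252 granulosa-like cells and 0 of 644 erythroid-like cells (exact interval up to 0.571%). For GLI1 the thinned shares were 2.84% of stroma-like and 0.0235% of granulosa-like cells, 1 cell, and again 0 of the erythroid-like cells. Thinning left out 230, 620 and 93 shallower cells of these classes. Among macrophage-like cells, the other class taken as background, 1.14% (0.138 to 4.04) of 176 thinned cells had a PTCH1 UMI.

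HHIP was at 9.86 CPM (8.32 to 11.6) in stroma-like and 3.89 CPM (3.04 to 4.91) in granulosa-like cells (log2 ratio 1.34, 0.92 to 1.77), but the difference depended on the barcode ending. In ending 2 it was 12.9 against 3.70 CPM (log2 ratio 1.80, 1.24 to 2.39). In ending 1 it was 5.07 against 4.09 CPM (log2 ratio 0.31, −0.44 to 1.05), an interval that includes no difference. BOC, which has its largest level outside stroma in surface epithelium-like cells (28.5 CPM), was at 69.7 CPM (65.5 to 74.1) in stroma-like and 7.23 CPM (6.05 to 8.58) in granulosa-like cells, 9.63-fold higher, with log2 ratios of 4.06 and 2.63 in endings 1 and 2.

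SMO, which every receiving cell needs, was high in 4 classes, with 79.9 CPM in stroma-like, 65.7 CPM in surface epithelium-like, 64.4 CPM in pericyte-like and 59.1 CPM in granulosa-like cells. It was lower in endothelial-like (21.2 CPM, 13.9 to 30.8), macrophage-like (10.9 CPM) and erythroid-like cells (4.61 CPM). The log2 ratio of stroma-like over granulosa-like cells was 0.44 (0.32 to 0.56). Within granulosa-like cells it ranged from 37.6 CPM in cluster 9 to 90.5 CPM in cluster 7. GLI3, the member of the family that acts mainly as a repressor without ligand, was at 7.90 CPM in stroma-like and 7.45 CPM in granulosa-like cells (log2 ratio 0.08, −0.29 to 0.45), and in both classes the level was higher in ending 1 (13.6 and 10.4 CPM) than in ending 2 (4.29 and 4.57 CPM). GLI2, the main activator in many tissues, had only 62 UMIs in the whole table. Its 20 UMIs in stroma-like and 7 in granulosa-like cells, 1.35 and 0.384 CPM, gave a log2 ratio of 1.82 with a wide interval, 0.52 to 3.30.

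**Figure D2:**
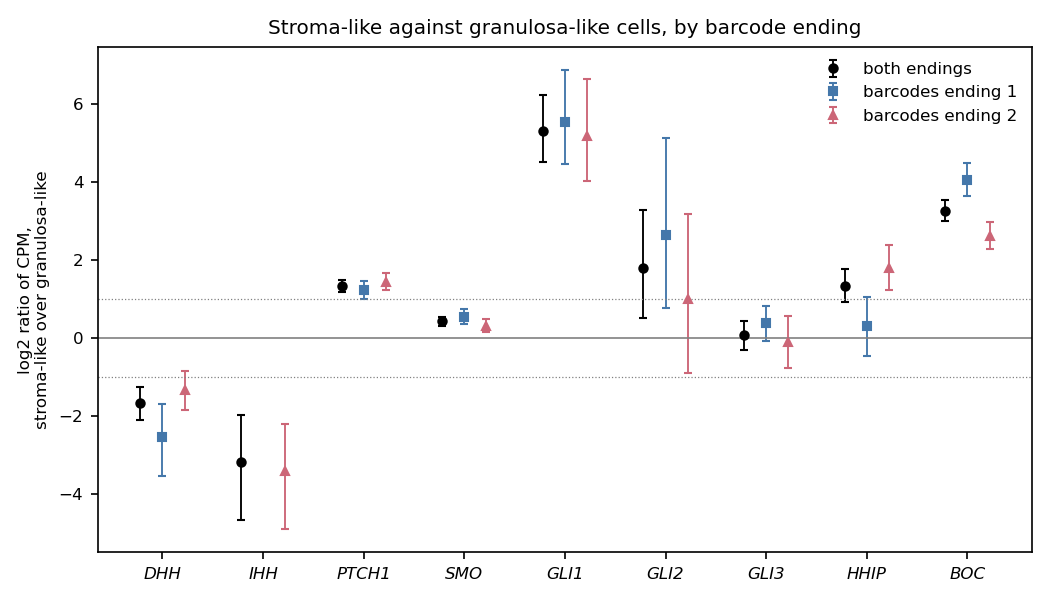
Log2 ratio of stroma-like over granulosa-like cells for each Hedgehog pathway gene, pooled and within each barcode ending, with 95% intervals from the counts. GLI1 and BOC lie far to the stroma side in both endings, DHH lies on the granulosa side, GLI3 sits near 0, and HHIP departs clearly from 0 only in ending 2.

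Pericytes, the contractile cells that wrap small vessels, had SMO but little of the response genes. Pericyte-like cells had 64.4 CPM of SMO (28 UMIs), with a log2 ratio of pericyte-like over stroma-like cells of −0.31 (−0.91 to 0.23). With no upper limit on genes, SMO was lower in pericyte-like cells, at 44.95 CPM (30.5 to 63.8) against 79.4 CPM (75.9 to 82.9). PTCH1 was at 13.8 CPM (5.06 to 30.0, 6 UMIs), below the stroma-like cells by a log2 ratio of −2.41 (−3.86 to −1.28), and BOC at 20.7 CPM (9 UMIs). GLI1 had 1 UMI. HHIP had none, which allows up to 6.90 CPM, a bound 1.43-fold below the stroma-like value of 9.86 CPM. The bound leaves out the counting error of that stroma-like value (8.32 to 11.6 CPM). It was lost at the lower depth of thinned cells and with the mitochondrial limit. Only 123 cells, 110 of them of ending 2, stand behind these values, and shallow counts leave room for a low level of each gene.

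The large stroma-like clusters differed in HHIP and GLI1. PTCH1 was at 73.4 CPM in cluster 0 and 73.6 CPM in cluster 2 (log2 ratio −0.00, −0.19 to 0.18). Clustered with no upper limit on genes, it was at 89.6 CPM (84.9 to 94.5) in cluster 0 of ending 2 and 74.7 CPM (68.7 to 81.1) in cluster 2 of ending 1. Within the gene limits HHIP was higher in cluster 0, at 13.1 against 5.10 CPM (log2 ratio 1.36, 0.76 to 2.02), and DHH too, at 4.79 against 2.19 CPM. GLI1 was lower in cluster 0, at 23.5 against 35.9 CPM (log2 ratio −0.61, −0.90 to −0.32), as were BOC at 55.2 against 94.7 CPM (log2 ratio −0.78) and GLI3 at 4.11 against 13.8 CPM (log2 ratio −1.75). So the targets HHIP and GLI1 differed in opposite directions. The clusters are of opposite barcode endings, and the library and the kind of stroma cannot be told apart here. The small proliferating cluster 17, with cells of both endings, had 70.1 CPM of PTCH1 and 34.2 CPM of GLI1.

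Across the 20 clusters, GLI1 followed BOC most closely among the 9 genes (Pearson r of log2 CPM with 10 added, 0.80, a description over clusters that share libraries). SMO followed GLI3 (r = 0.78) and DHH (r = 0.74), and DHH and GLI1 were unrelated (r = 0.02). Of 10852 genes with 200 or more UMIs, those most like GLI1 were FNDC1 (r = 0.98), SLC7A10, DPT, PDGFRA and FAP (each 0.96), and those most like BOC were GLT8D2 (r = 0.96), COL5A2 and LOX (each 0.95), MFAP4 (r = 0.94) and COL5A1 (r = 0.91). PDGFRA and MFAP4 are among the markers by which stroma was named. HHIP was most like ENPP6 (r = 0.91), PLD5, MMP11, FXYD6 and RASL11B, all highest in cluster 0. DHH was most like PTPRK (r = 0.92), NDST1, TFPI, NNT and SLC22A4, all highest in granulosa-like clusters. For PTCH1 a gene without a symbol and PRKD3 (r = 0.90 and 0.89) came first, both highest in germ cell-like cluster 4, and then RUSC2, NT5C2 and SENP7. SMO was closest to another gene without a symbol and to GPSM1 (each 0.95), ZNF300, EXT2 and AIG1, and GLI3 to DDR2 and NAV2 (each 0.89), PCDH9, PTN and COL12A1.

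Cells over 3000 genes were left out above by the limit the study used. They held 95573696 of the 148824177 UMIs of all genes. Of the UMIs of the 9 genes they held from 48.4% (GLI2) to 68.4% (DHH), with 64.2% for PTCH1 and 51.4% for GLI1. Such shares are no trait of these genes, since the deep cells held much of all RNA. The cells with the most PTCH1 were stromal. In the 582 stroma-like cells over 3000 genes, PTCH1 was at 116 CPM (109 to 123), HHIP at 17.8 CPM and GLI1 at 33.4 CPM. Within them PTCH1 was at 75.3 CPM in ending 1 and 128 CPM in ending 2. The whole table had 17 cells with 12 or more PTCH1 UMIs, a limit set after the values were seen, with 4486 to 8409 genes each, and 16 were stroma-like, 15 of them of ending 2. Of the 17, 16 also had a GLI1 UMI and 15 an HHIP UMI. Among the 582 stroma-like cells over 3000 genes, 36.4% had a GLI1 UMI and 21.3% an HHIP UMI, at a median of 13600.5 UMIs. A limit on raw counts favours deep cells, in which any gene is found more often, so these shares do not compare cells of equal depth.

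Within ending 2, the 15 stroma-like cells of highest PTCH1 had 71.8 CPM of GLI1 (52.6 to 95.7) and 51.5 CPM of HHIP (35.4 to 72.3), against 27.1 CPM (23.4 to 31.2) and 18.4 CPM (15.4 to 21.8) in the 422 other deep stroma-like cells. INSL3 and CYP17A1, genes of steroid-producing theca and Leydig cells, ran the other way, with 40.6 against 138 CPM and 20.3 against 145 CPM. BOC was at 31.2 against 42.5 CPM, with overlapping intervals. These cells were picked by their PTCH1 counts, so the values are a description.

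Clustered with no upper limit on genes, the proliferating stroma-like cluster 18 showed the contrast between the endings. Its 124 cells of ending 2 had 179 CPM of PTCH1 (160 to 200), 22.4 CPM of HHIP, 23.6 CPM of BOC and 195 CPM of INSL3. Its 79 cells of ending 1 had 56.1 CPM of PTCH1 (36.3 to 82.9), 2.25 CPM of HHIP (1 UMI), 108 CPM of BOC and no UMI of INSL3. GLI1 was at 38.3 and 38.2 CPM. MKI67, a marker of dividing cells, was high in each, at 459 and 772 CPM. Thus PTCH1 and HHIP were higher in the ending whose proliferating stroma also had INSL3, with GLI1 level between them.

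Whether receptor and response genes occur in the same stromal cells was asked with cells of equal depth. After thinning to 1000 UMIs, 3.64% of 247 stroma-like cells with a PTCH1 UMI and 2.78% of 3491 without one had a GLI1 UMI, with overlapping intervals. At 10000 UMIs, a depth chosen after the first result was seen and reached by 503 cells, GLI1 was found in 28.6% (23.1 to 34.6) of cells with a PTCH1 UMI and 16.7% (12.3 to 21.9) of those without. HHIP was found in 20.2% (15.5 to 25.7) and 9.16% (5.90 to 13.4).

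SMO was found in 57.1% and 47.0% and BOC in 37.3% and 41.0%, each with overlapping intervals. In the 393 cells of ending 2 the shares for GLI1 were 27.4% (21.3 to 34.2) and 13.8% (9.28 to 19.4). The 110 cells of ending 1 gave 32.7% (20.7 to 46.7) and 27.3% (16.1 to 41.0), so there the difference was not detectable at this number of cells. DHH was too sparse in granulosa-like cells for such a comparison, with 49 cells that had a UMI after thinning to 1000.

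**Figure D3:**
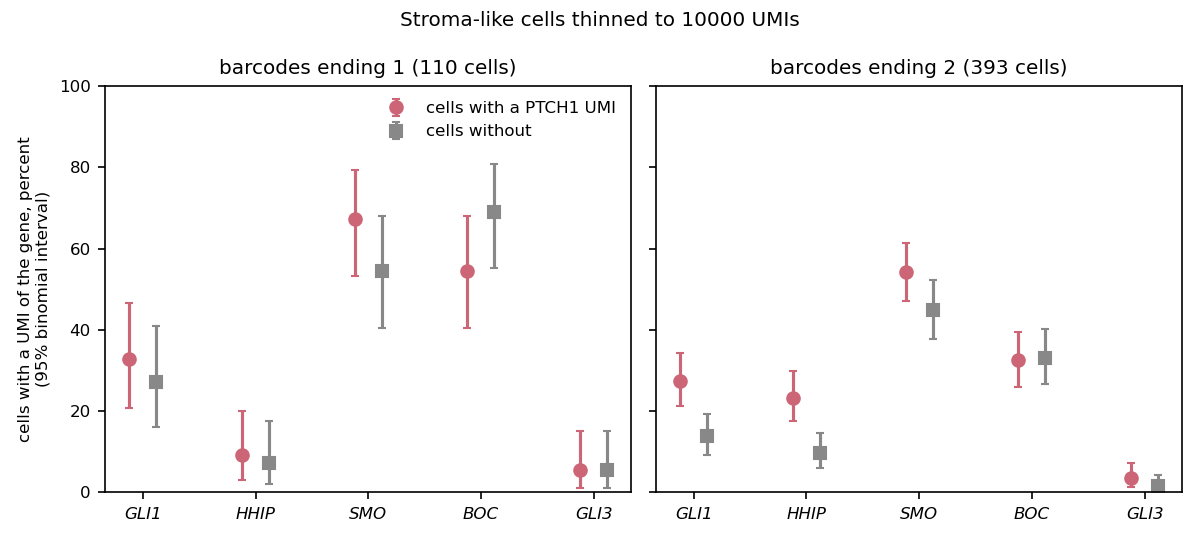
Share of stroma-like cells with a UMI of GLI1, HHIP, SMO, BOC or GLI3 among cells with and without a PTCH1 UMI, each cell thinned to 10000 UMIs, by barcode ending, with exact 95% binomial intervals. In ending 2, GLI1 and HHIP are found more often beside PTCH1 and their intervals do not overlap, while every pair of intervals overlaps in ending 1.

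Among the 8 Hedgehog genes with enough UMIs to compare, PTCH1 in germ cells was the closest to its stromal level. IHH, at 0.606 CPM in germ cell-like and 0.405 CPM in stroma-like cells from 6 UMIs each, was not compared. Of 8 Hedgehog genes with 20 or more UMIs over both classes, 0 were at least 2-fold higher in germ cell-like than in stroma-like cells, where 27.1% of 13562 genes were, and 7 were at least 2-fold higher in stroma-like cells, where 20.9% were. The exception was PTCH1, at 41.0 CPM (37.1 to 45.2, 406 UMIs). SMO, through which PTCH1 acts on the GLI factors, was at 8.79 CPM, BOC at 7.57 CPM, and GLI1 at 1.21 CPM (12 UMIs). Germ cell-like cells thus had 406 UMIs of PTCH1 beside 12 of GLI1, and stroma-like cells 1086 beside 422.

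Split by stage markers, PTCH1 was, among the named stages, highest in meiotic-like germ cells and lowest in mitotic-like and oogenesis-like ones. It was at 64.6 CPM (54.9 to 75.6, 156 UMIs) in meiotic-like cells, 40.8 CPM (34.5 to 48.0) in RA-responsive-like cells (germ cells with genes switched on by retinoic acid before meiosis), 16.7 CPM (9.91 to 26.4) in oogenesis-like cells and 14.5 CPM (6.27 to 28.6, 8 UMIs) in mitotic-like cells. The meiotic-like level was 3.86-fold that of oogenesis-like cells (log2 ratio 1.95, 1.24 to 2.74), 1.58-fold that of RA-responsive-like cells (log2 ratio 0.66, 0.33 to 1.00) and did not differ from that of stroma-like cells beyond counting error (log2 ratio −0.18, −0.43 to 0.06). A further 1846 germ cell-like cells got no stage name, and had PTCH1 at 34.0 CPM (26.8 to 42.5). By ending it was 47.9 CPM (36.8 to 61.4) in ending 1 and 14.8 CPM (8.10 to 24.9) in ending 2. Their largest sub-clusters, of 772 and 656 cells, were led in part by the stroma markers COL1A2, COL3A1 and DCN. Another unnamed sub-cluster, of 287 cells with 243 of ending 2, was led in part by SYCP1 and FIGLA and had 0 raised somatic markers.

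In the same meiotic-like cells SMO was 12.1-fold lower than in stroma-like cells, at 6.63 CPM, and GLI1 was at 1.24 CPM from 3 UMIs (log2 ratio −4.52, −6.80 to −2.96). SMO was at 25.4 CPM (13.9 to 42.7) in mitotic-like cells, above the RA-responsive-like level of 6.62 CPM (4.24 to 9.85). Thinned to 1000 UMIs, 6.92% (5.30 to 8.86) of meiotic-like cells (median 1869.5 UMIs before thinning) had a PTCH1 UMI and 1.77% (0.578 to 4.09) of oogenesis-like cells (median 1234 UMIs), beside none of the erythroid-like cells. The share was 1.14% (0.138 to 4.04) in macrophage-like cells. Their unthinned PTCH1 level, 15.03 CPM (7.50 to 26.9), overlaps those of mitotic-like and oogenesis-like cells, so these low levels are not set apart from free RNA.

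The stages also follow the libraries, since 914 of 956 meiotic-like cells were of ending 1 and 451 of 460 oogenesis-like cells of ending 2. All 81 mitotic-like cells were of ending 1. Of the named stages, only the RA-responsive-like cells were well filled in each ending, with 39.9 CPM of PTCH1 in ending 1 and 42.7 CPM in ending 2. Germ cells over 3000 genes, named in the same way, gave the same order, at 50.0 CPM (44.5 to 56.1) in meiotic-like, 37.1 CPM (33.6 to 40.9) in RA-responsive-like and 18.01 CPM (15.5 to 20.9) in oogenesis-like cells. Within ending 2 alone the deep meiotic-like cells were at 38.6 CPM (131 UMIs), the RA-responsive-like at 37.9 CPM (165 UMIs) and the oogenesis-like at 17.96 CPM (174 UMIs), so that the intervals of the meiotic-like and RA-responsive-like cells overlap and the oogenesis-like cells lie lower. Within ending 1 the deep meiotic-like cells were at 66.1 CPM (56.3 to 77.2) and the RA-responsive-like at 36.7 CPM (32.2 to 41.5), so there the meiotic-like cells were higher. GLI1 had 0 UMIs in the 217 deep oogenesis-like cells, at most 0.304 CPM.

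**Figure D4:**
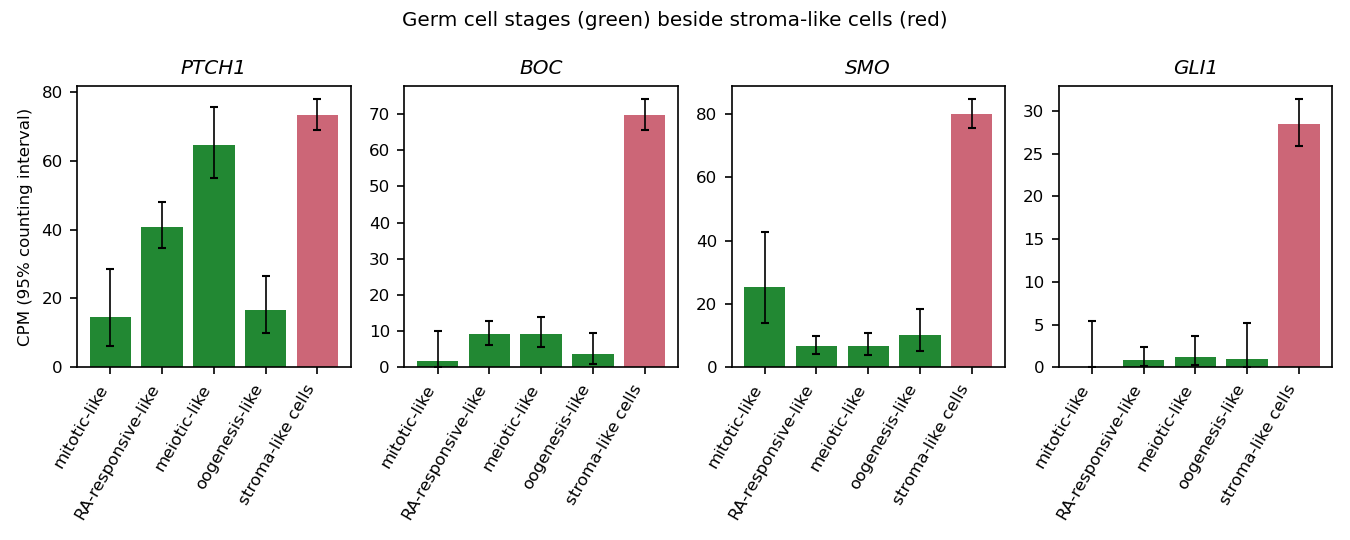
Level of PTCH1, BOC, SMO and GLI1 in germ cell-like cells by named stage, beside stroma-like cells (CPM, exact 95% Poisson intervals). PTCH1 ranges from 14.5 CPM (mitotic-like) to 64.6 CPM (meiotic-like), while SMO and GLI1 stay below 11 CPM in every named stage but the mitotic-like, where SMO reaches 25.4 CPM.

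Of 50 further pathway genes in the table, 42 had enough UMIs, and 5 were at least 2-fold higher in stroma-like cells, beside 9.97% of all genes, and 3 in granulosa-like cells, beside 14.8%, with a median log2 ratio of 0.13. Such counts are near the shares over all genes. Among the co-receptors, GPC3, a glypican that binds Hedgehog ligands, was at 58.7 and 1.37 CPM (log2 ratio 5.42, 4.85 to 6.06). CDON, which is related to BOC and acts like it, was at 56.1 and 41.2 CPM (log2 ratio 0.45).

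The counts for the smaller groups below stand beside the same 9.97% and 14.8% of all genes. Of 16 signal carriers, 0 were at least 2-fold higher in stroma-like cells and 1, the kinase STK36, in granulosa-like cells (5.31 against 2.16 CPM), and SUFU, the inhibitor that holds GLI factors, was at 13.7 and 9.59 CPM. Of 10 genes of the primary cilium, on which the pathway signals, 0 were higher in stroma-like and 1, INTU, in granulosa-like cells, at 122 against 57.1 CPM. Among tissue targets, 3 of 6 were higher in stroma-like cells, namely the nuclear receptors NR2F2 (784 against 78.5 CPM), NR2F1 (202 against 16.3 CPM) and the growth factor IGF1 (7.36 against 1.86 CPM, with log2 ratios of 0.57 in ending 1 and 4.75 in ending 2), and MYCN, a growth-promoting transcription factor, in granulosa-like cells (14.2 against 2.90 CPM). Of 4 further genes for ligands and their release with enough UMIs, 0 were past 2-fold in either direction. SHH, the third ligand of the family, had 11 UMIs over all retained cells.

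A last list of 9 genes held theca and Leydig cell genes together with WT1 and the oocyte factors GDF9 and BMP15. Of these, 8 could be compared and 5 were at least 2-fold higher in stroma-like cells, beside 9.97% of all genes. DLK1, a stem and progenitor cell gene, was at 696 against 17.04 CPM, CXCL12, a chemokine, at 486 against 29.0 CPM while TCF21 and PDGFRA also named the class. ACTA2, smooth muscle actin, was at 147 against 44.0 CPM, but the log2 ratio was 4.52 in ending 1 and 0.05 in ending 2. WT1 was higher in granulosa-like cells, at 195 against 58.2 CPM. CYP17A1 was at 11.7 CPM in granulosa-like and 5.33 CPM in stroma-like cells, with most of it in cluster 7. Its log2 ratio was −1.52 in ending 2 and 1.47 in ending 1. The value for ending 1 rests on very few UMIs. The large clusters of that ending had 7 UMIs (stroma-like cluster 2) and 2 each (granulosa-like clusters 1 and 9). A turn in direction between the endings is therefore not shown. In the stroma-like cells over 3000 genes with fewer than 12 PTCH1 UMIs, CYP17A1 was at 110 CPM. The study describes several of these genes in these same cells, so they are not independent evidence of a direction. GDF9 had 59.3 CPM over germ cell-like cells and 262 CPM in their cluster 8.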

How the data were processed

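Single-cell RNA was measured in 2 droplet libraries, 1 per fetus. The authors' deposited table holds raw UMI counts, 148824177 in all, made with Cell Ranger 3.0.2 per the submitters' processing notes, with Macaca_fascicularis_5.0 as the reference. The gene limits of 200 to 3000 are from the study's methods, and they keep a number of cells that differs from the one the study states.

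Cells were clustered in Seurat 5.3.0 (R 4.3.3) with 2000 variable genes, none of the pathway lists among them, 18 principal components and resolution 0.6. A class name needed 3 markers of its list 1.5-fold above all other cells, and germ cell-like cells were clustered again for stages. Scrublet in scanpy 1.11.5 called 0 doublets among the 10621 and 10346 cells of the endings, so it did not work here and no doublet was removed. An alternative left out the 8% of highest scores. Levels are summed UMIs scaled to a common total (CPM) with exact 95% Poisson intervals, shares have exact binomial intervals, and ratios have intervals from the exact binomial interval of the counts. A level with no UMI is limited by 3 counts. A gene was compared at 20 or more UMIs over both classes. Simulated data were used to check the scripts.

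The genes named are the 9, those of the pathway lists, and for each with 200 or more UMIs the 5 genes most like it across clusters. Genes and lists were chosen with earlier results of these data known. Thresholds on IHH and PTCH1 counts and the deeper thinning were set after values were seen. Sequences of promoters and proteins were not analysed here, nor were PRKAR1A, FOXL1 and FOXD1. A further gene of the pathway lists is counted but not reported here. Analyses used Python 3.11.15, numpy 2.4.6, scipy 1.17.1 and pandas 2.3.3.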

Additional observations from a re-analysis of the deposited data

Results flagged for a closer look

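Cells over 3000 genes, which the classes compared above leave out, held UMIs of each of the 9 genes, and this signal outside the main measurement is why they are listed. Those cells had 3934 UMIs of PTCH1, 3812 of SMO, 1532 of BOC, 702 of DHH, 492 of GLI1, 359 of HHIP, 320 of GLI3, 147 of IHH and 30 of GLI2. They numbered 4675, with a median of 16096 UMIs, and held 95573696 of the 148824177 UMIs of the table. Named by the same rule, their granulosa-like cells had DHH at 16.95 CPM and IHH at 4.43 CPM, with GLI1 at 0.844 CPM, and their stroma-like cells had GLI1 at 33.4 CPM with DHH at 6.19 CPM. All IHH of those granulosa-like cells, 126 UMIs, was in ending 2. Cells with many genes can hold more than 1 cell, and the part of doublets in these values was not tested, since the doublet caller marked no cell.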

How the results depend on the processing

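Of 178 values of 13 results under 14 alternative settings, 151 kept their direction and stayed within counting error or within 1.5 times the count, 25 moved and 2 turned direction. Log2 ratios are of stroma-like over granulosa-like cells unless stated. For PTCH1, 1.34 as reported, the ratio was 1.67 with no upper limit on genes, 1.07 with cells over 10% mitochondrial UMIs left out, 1.17 as the mean CPM of single cells and 1.19 in CPM without mitochondrial UMIs (chosen after seeing the data). For GLI1 it was 6.97 after thinning to 1000 UMIs. For DHH it was −2.53 with barcodes ending in 1 only. For IHH it was −1.74 without the granulosa-like cluster of highest mitochondrial share. HHIP lost its 2-fold difference with the mitochondrial limit (0.66, −0.09 to 1.51) and after thinning (0.80). The number of genes at least 2-fold higher in stroma-like cells, 5 as reported, was 3 with the mitochondrial limit, 3 after thinning and 3 in ending 1. The number higher in granulosa-like cells, 2 as reported, was 1 with the mitochondrial limit, where IHH was lost and had only a bound of −0.53, and 1 in ending 1. The bound for HHIP in pericyte-like over stroma-like cells, from 0 UMIs in pericyte-like cells, turned to 0.06 with the mitochondrial limit and 1.92 after thinning, since fewer UMIs raise the bound, so HHIP in pericyte-like cells is limited by depth. Other causes were not tested. No paired test was made. Granulosa-like and stroma-like cells occur in each barcode ending, and their ratios are given within each ending, but no ending could be tied to a day. Resolutions, components, doublet scores and the pathway genes as variable genes moved none of the 13 results. GLI2, IHH and all pericyte-like values rest on few UMIs.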
